A study of Sus scrofa with 6 samples.

Results

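Molecular chaperones and their co-chaperones were followed in the longissimus dorsi, a long back muscle, of Wannanhua and Yorkshire pigs. The set holds every row of the expression table whose Ensembl pig identifier maps to a symbol of the DNAJ, HSPA, HSPD, HSPE, HSPH or HSP90 genes, or to CCT or BAG followed by a digit. This gave 56 of 17627 genes. There were 3 libraries from Wannanhua, a local Chinese breed, and 3 from Yorkshire, a lean commercial breed, all from pigs labelled as 5 months of age, although the design text speaks of piglets. The labels name no treatment, and they do not say that the libraries of a breed came from separate animals, so each p-value sets breed against the scatter of these 6 libraries, some of which may be technical. The comparison asks which chaperone genes differ in level between the muscles of the breeds.

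Chaperones bind unfolded proteins and help them fold or pass them on for breakdown. HSP70 proteins (HSPA) clamp and release a client with each round of ATP use. J-proteins (DNAJ) bring the client and start the ATP step, while HSP110 proteins and some BAG proteins free the spent nucleotide. HSP90 takes over clients that are nearly folded, among them muscle myosin, and the CCT ring encloses actin and tubulin as they fold. Mitochondria use an HSP70 of their own and the HSPD1 and HSPE1 chamber, and the endoplasmic reticulum uses HSPA5 and HSP90B1. Some of these genes are always on, while others are raised many times by heat, exercise or slaughter through the heat shock factor HSF1.

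The summed scaled counts of the libraries lay between 16373268 and 19251335, and chaperones took between 0.671% and 1.06% of them. Spearman correlations across genes were 0.937 to 0.956 within Wannanhua, 0.913 to 0.961 within Yorkshire and 0.880 to 0.928 between breeds. Muscle markers with a row, DES, NEB and ACTN2, summed to 6783 to 9184 FPKM in Wannanhua and 3681 to 4025 in Yorkshire. FPKM gives fragments per kilobase of transcript, set against all fragments mapped in that library. The libraries differed in fibre type, since 6 slow-fibre markers summed to 40535, 43354 and 10802 FPKM in Wannanhua 1, 2 and 3, against 17301, 5649 and 10064 in Yorkshire 1, 2 and 3. The 6 fast-fibre markers summed to 20213, 11608 and 36607 FPKM in Wannanhua, against 53825, 54950 and 53931 in Yorkshire, and in both sums Wannanhua 3 stood closer to Yorkshire than did Wannanhua 1 and 2. In whole muscle, fewer cells of a type and less RNA per cell cannot be told apart.

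Of the 56 genes, 53 passed a filter of 1 FPKM in at least 3 libraries and were tested. In limma, 1 of the 53 passed an adjusted p of 0.05, or 1.89%, against 3.05% of all 11791 genes tested. That gene was DNAJC28, which was higher in Wannanhua muscle, as were 1.76% of all genes. At an unadjusted p under 0.05 stood 14 members (26.4%), against 22.1% of all genes. In 10 of them (18.9%, against 14.6% of all genes) the log2 fold change, Wannanhua minus Yorkshire, was positive, and in 4 (7.55%, against 7.53%) it was negative. Over the 53 members it was above 0 in 39 (73.6%, against 62.6% of all genes). The 3 libraries of each breed did not overlap in 20 members (37.7%), against 29.9% of all genes. Wannanhua lay above in 18 of them (34.0%, against 20.3% of all genes) and Yorkshire above in 2 (3.77%, against 9.63%). Read on scaled counts, an alternative chosen after seeing the data, these counts were 15 (28.3%, against 18.8% of all genes) and 3 (5.66%, against 9.58%), without DNAJB9, DNAJC2, DNAJC9 and DNAJC10 among the first. DNAJC6, counted among the 10, the 18 and the 15, passed the filter through its Wannanhua libraries alone. The median log2 fold change was 0.17 over the 53 members and 0.12 over all genes tested. After quantile normalization these medians stood at 0.11 and 0.00. For 39 members the 95% interval of the difference included 0, and its width ran from 0.70 for BAG6 to 2.51 for DNAJB1.

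**Figure D1:**
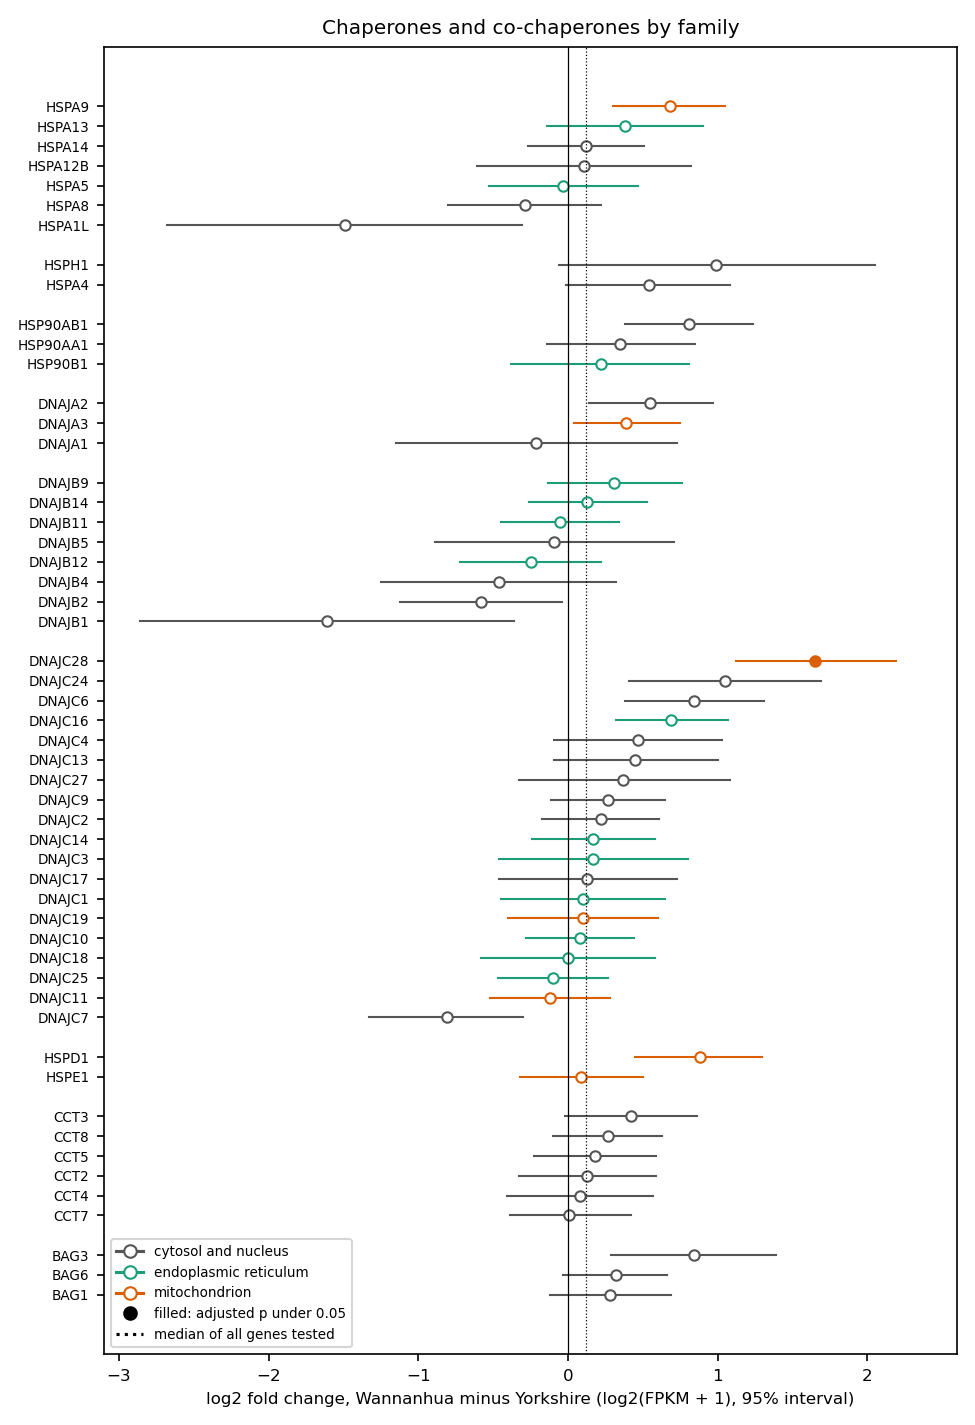
Log2 fold change, Wannanhua minus Yorkshire, of the 53 tested chaperones and co-chaperones on the log2(FPKM + 1) scale, with limma's 95% intervals, grouped by family from HSPA at the top to BAG at the bottom and coloured by compartment. The filled point is DNAJC28, the member past the adjusted threshold, and the dotted line is the median of all genes tested, 0.12; the intervals of DNAJB1 and HSPA1L are among the widest.

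DNAJC28, a little-studied J-domain protein grouped here with the mitochondrial members, had 12.7, 12.6 and 7.59 FPKM in Wannanhua 1, 2 and 3, against 2.63, 2.37 and 3.18 FPKM in Yorkshire 1, 2 and 3. Even the lowest Wannanhua library, Wannanhua 3, lay above every Yorkshire library. Its mean was 11.0 ± 2.91 FPKM in Wannanhua muscle and 2.73 ± 0.41 FPKM in Yorkshire muscle (SD, n = 3 each), a ratio of 4.02. On the log2 scale the breeds differed by 1.65 ± 0.23 (SE), with a 95% interval of 1.12 to 2.19 and a limma adjusted p of 0.0248. Scaled counts of 176 to 288 in Wannanhua and 54.8 to 70.4 in Yorkshire stood behind these values. The call was lost without Wannanhua 1, Wannanhua 2, Yorkshire 2 or Yorkshire 3 (limma adjusted p = 0.0954, 0.108, 0.0708 and 0.0903), where the log2 fold change was 1.54, 1.55, 1.59 and 1.74. Over all 14 alternatives the adjusted p ranged from 0.0068 to 0.108. In RefSeq build Sscrofa11.1 no annotated gene overlaps DNAJC28, and its neighbours are TMEM50B and GART. GART averaged 2.94 FPKM in Wannanhua muscle and 2.51 FPKM in Yorkshire muscle (limma adjusted p = 0.666).

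The other mitochondrial members fell into genes whose breeds stood apart and genes whose breeds overlapped. HSPA9, or mortalin, is the HSP70 that pulls proteins into the mitochondrial matrix. It had 169, 156 and 164 FPKM in Wannanhua 1, 2 and 3, against 109, 99.2 and 97.0 FPKM in Yorkshire 1, 2 and 3. No library of either breed came near the other breed, and the spread within each was small. The mean was 163 ± 6.64 FPKM in Wannanhua muscle and 102 ± 6.32 FPKM in Yorkshire muscle (SD, n = 3 each; log2 fold change 0.68, 95% interval 0.30 to 1.05, limma adjusted p = 0.0693).

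HSPD1, or HSP60, is the barrel of the mitochondrial folding chamber. It had 149, 119 and 117 FPKM in Wannanhua 1, 2 and 3, against 69.8, 62.2 and 75.7 FPKM in Yorkshire 1, 2 and 3. Its lowest Wannanhua library lay well above its highest Yorkshire library. The log2 fold change was 0.88 with a 95% interval of 0.45 to 1.30 (limma adjusted p = 0.0514). HSPD1 passed the threshold with a filter at 5 FPKM (0.0422) and on scaled counts (0.0484), and in no other alternative. Over all 14 alternatives its limma adjusted p ranged from 0.0422 to 0.163. HSPE1, or HSP10, is the lid of the same chamber, and the genes are next to each other in RefSeq build Sscrofa11.1. It had 473, 409 and 441 FPKM in Wannanhua 1, 2 and 3, against 448, 381 and 414 FPKM in Yorkshire 1, 2 and 3. The breeds overlapped in HSPE1, with a log2 fold change of 0.09 and a 95% interval of -0.32 to 0.50 (limma adjusted p = 0.80). The ratio of HSPD1 to HSPE1 was 0.316, 0.290 and 0.265 in Wannanhua 1, 2 and 3, against 0.156, 0.163 and 0.183 in Yorkshire 1, 2 and 3. This ratio was chosen after the values of both genes were seen and was not tested. FPKM depends on the gene model, so its size within a library says little about the protein ratio, while both breeds share the same model.

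DNAJA3, or TID1, is the J-protein that works with HSPA9 in the matrix. It had 41.0, 42.8 and 39.1 FPKM in Wannanhua 1, 2 and 3, against 32.6, 29.2 and 31.3 FPKM in Yorkshire 1, 2 and 3. All Wannanhua libraries lay above all Yorkshire libraries, by a log2 fold change of 0.39 (95% interval 0.04 to 0.75; limma adjusted p = 0.191). DNAJC19 is the J-protein of the import motor at the inner membrane. It had 105, 112 and 88.7 FPKM in Wannanhua 1, 2 and 3, against 121, 79.6 and 87.7 FPKM in Yorkshire 1, 2 and 3. Its libraries overlapped, and Yorkshire 1 was the highest of all (log2 fold change 0.10, 95% interval -0.40 to 0.60, limma adjusted p = 0.811). DNAJC11, a J-protein tied to the cristae of the inner membrane, averaged 11.7 ± 0.56 FPKM in Wannanhua muscle and 12.9 ± 1.86 FPKM in Yorkshire muscle (SD, n = 3 each) and overlapped as well.

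Among the 7 mitochondrial members, 6 had values above 0 for the log2 fold change (85.7%, against 62.6% of all genes). The median was 0.39, against 0.12 over all genes, and stood between 0.35 and 0.43 in every alternative run. DNAJC28 was the 1 member past the threshold (14.3%, against 3.05% of all genes, or 1.76% in its direction). At an unadjusted limma p under 0.05 stood 4 (57.1%), all with a positive log2 fold change, against 14.6% of all genes in that direction. In Wannanhua 3, whose slow-fibre sum of 10802 FPKM lay within the Yorkshire range of 5649 to 17301, HSPA9, HSPD1 and DNAJA3 still stood at 164, 117 and 39.1 FPKM, above all Yorkshire libraries. The fast-fibre sum of Wannanhua 3, 36607 FPKM, lay below the Yorkshire range of 53825 to 54950, and its muscle-marker sum, 6783 FPKM, above that of 3681 to 4025. DNAJC28 stood at 7.59 FPKM there, against 12.7 and 12.6 FPKM in Wannanhua 1 and 2. The part of fibre type in these values was not tested. TRAP1, the mitochondrial HSP90, is no member, and averaged 20.5 ± 4.69 FPKM in Wannanhua muscle and 13.1 ± 3.71 FPKM in Yorkshire muscle (SD, n = 3 each; limma adjusted p = 0.207).

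**Figure D2:**
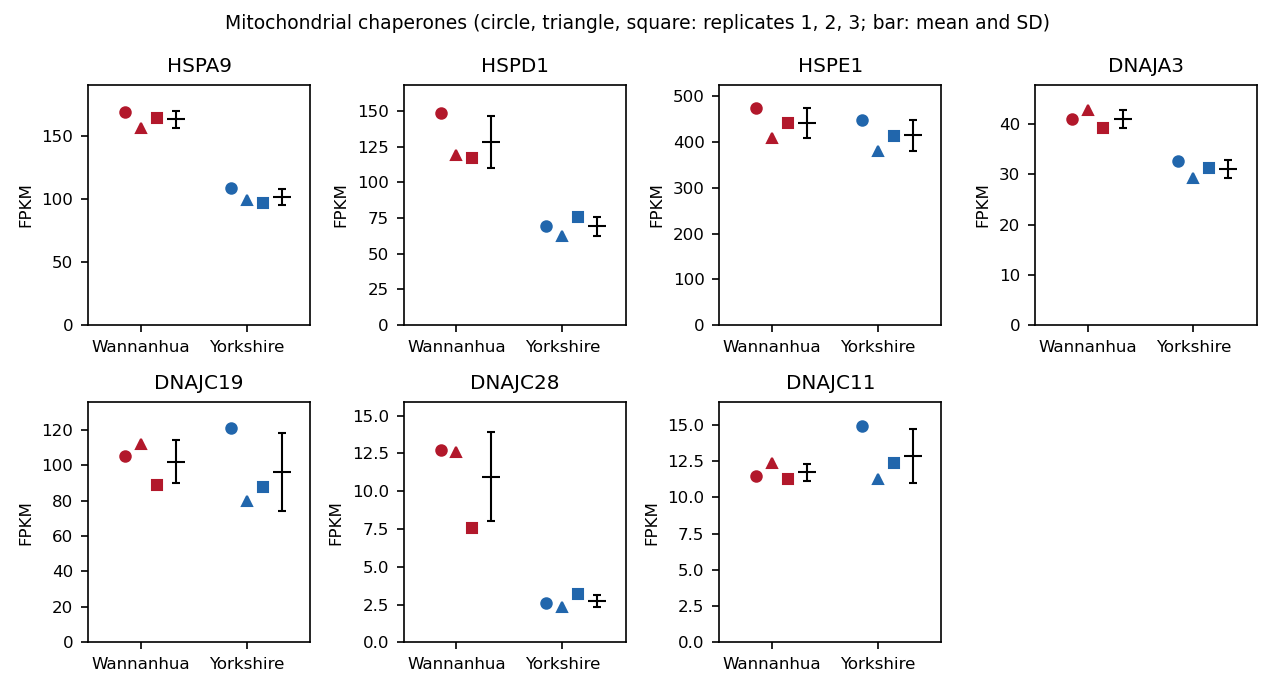
FPKM of the 7 mitochondrial chaperones and J-proteins in each library, Wannanhua on the left and Yorkshire on the right of each panel, with circle, triangle and square for replicates 1, 2 and 3 and bars for mean and SD. The breeds do not overlap in HSPA9, HSPD1, DNAJA3 and DNAJC28, and overlap in HSPE1, DNAJC19 and DNAJC11.

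In the cytosol, the row with the highest mean FPKM over the 6 libraries was that named HSPA1L, an HSP70 gene beside the heat-inducible HSP70 genes of the major histocompatibility region. In Wannanhua 1 and 3 other members, HSPA8 and HSPE1 among them, stood above it. It had 350, 826 and 364 FPKM in Wannanhua 1, 2 and 3, against 753, 1233 and 2543 FPKM in Yorkshire 1, 2 and 3. The breeds overlapped, since Wannanhua 2 lay above Yorkshire 1, and the highest Yorkshire library was 3.38 times the lowest. The mean was 513 ± 271 FPKM in Wannanhua muscle and 1510 ± 926 FPKM in Yorkshire muscle (SD, n = 3 each). The log2 fold change was -1.49, with a 95% interval of -2.68 to -0.31 (limma adjusted p = 0.145). In RefSeq build Sscrofa11.1 HSPA1L overlaps HSP70.2, an inducible HSP70. The deposited row named HSP70.2 held 1.31 to 1.6 FPKM in Wannanhua and 1.22 to 2.31 in Yorkshire. The sources used here do not say how reads were shared among related genes, so the HSPA1L values may hold reads of other HSP70 genes. This row made up 9.13% to 20.9% of the summed FPKM of all members in Wannanhua, against 20.9%, 30.4% and 43.7% in Yorkshire 1, 2 and 3.

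HSPA8, the HSP70 that is always on, had 376, 305 and 452 FPKM in Wannanhua 1, 2 and 3, against 445, 404 and 529 FPKM in Yorkshire 1, 2 and 3. Its breeds overlapped and its libraries lay much closer together than those of HSPA1L (log2 fold change -0.29, 95% interval -0.80 to 0.22, limma adjusted p = 0.471). The ratio of HSPA1L to HSPA8 was 0.931, 2.71 and 0.805 in Wannanhua 1, 2 and 3, against 1.69, 3.05 and 4.81 in Yorkshire 1, 2 and 3. HSPA14, an HSP70 bound to ribosomes, averaged 8.41 ± 0.68 FPKM in Wannanhua muscle and 7.69 ± 0.87 FPKM in Yorkshire muscle (SD, n = 3 each). HSPA12B, a distant relative found in blood vessels, averaged 2.65 ± 1.45 and 2.25 ± 0.58 FPKM in the same order of breeds. Over the 7 HSPA genes the median was 0.11, and it turned to -0.04 after quantile normalization and to -0.15 without Wannanhua 2.

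The 2 HSP110 genes tested, nucleotide exchange factors of HSP70, both had positive log2 fold changes, as did 62.6% of all genes. HSPH1, the heat-inducible form, had 32.7, 35.8 and 49.0 FPKM in Wannanhua 1, 2 and 3, against 8.93, 20.0 and 36.5 FPKM in Yorkshire 1, 2 and 3. Only Yorkshire 3 reached the Wannanhua range, and the Yorkshire libraries spanned 4.09 times (log2 fold change 0.99, 95% interval -0.06 to 2.05, limma adjusted p = 0.244). The log2 fold change was 0.50 without Yorkshire 1 and 1.45 without Yorkshire 3. HSPA4, its constitutive relative, had 42.3, 51.2 and 51.4 FPKM in Wannanhua 1, 2 and 3, against 27.6, 28.0 and 45.8 FPKM in Yorkshire 1, 2 and 3. Here too Yorkshire 3 alone overlapped Wannanhua (log2 fold change 0.54, 95% interval -0.01 to 1.08, limma adjusted p = 0.234).

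HSP90 genes all had positive log2 fold changes, as did 62.6% of all genes, with a median of 0.35, against 0.12 over all genes. HSP90AB1, the HSP90 that is always on, had 109, 128 and 151 FPKM in Wannanhua 1, 2 and 3, against 71.3, 78.2 and 69.6 FPKM in Yorkshire 1, 2 and 3. The breeds did not overlap, and Yorkshire was the tighter group. Its mean was 130 ± 21.1 FPKM in Wannanhua muscle and 73.0 ± 4.55 FPKM in Yorkshire muscle (SD, n = 3 each; log2 fold change 0.81, 95% interval 0.38 to 1.24, limma adjusted p = 0.0630). In RefSeq build Sscrofa11.1 it overlaps SLC35B2, which averaged 7.28 FPKM in Wannanhua muscle and 9.29 FPKM in Yorkshire muscle. HSP90AA1, the inducible form, had 340, 432 and 500 FPKM in Wannanhua 1, 2 and 3, against 332, 291 and 363 FPKM in Yorkshire 1, 2 and 3. Its breeds overlapped through Wannanhua 1 (log2 fold change 0.35, 95% interval -0.14 to 0.85, limma adjusted p = 0.371). The locus that carries the name HSP90AA1 in the same RefSeq build overlaps FBXW5. Whether the deposited row measures that locus was not checked, so no FBXW5 value is set beside it. The ratio of HSP90AB1 to HSP90AA1 was 0.322, 0.296 and 0.303 in Wannanhua 1, 2 and 3, against 0.214, 0.268 and 0.192 in Yorkshire 1, 2 and 3, and was chosen after the values were seen. Its size depends on the gene models. Mean scaled counts of HSP90AB1 and HSP90AA1 were 16808 and 15464 in Wannanhua muscle, and 9475 and 11885 in Yorkshire muscle.

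**Figure D3:**
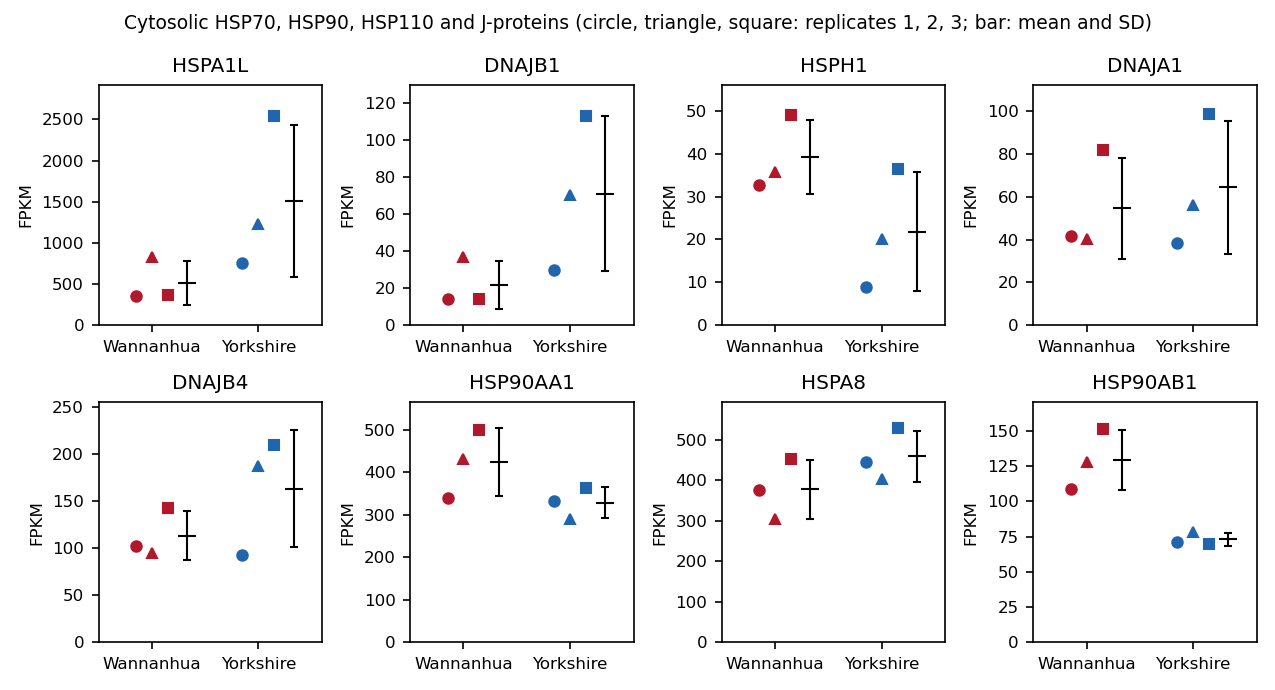
FPKM of 8 cytosolic chaperones and J-proteins in each library, Wannanhua on the left and Yorkshire on the right of each panel, with circle, triangle and square for replicates 1, 2 and 3 and bars for mean and SD. HSPA1L and DNAJB1 reach their highest values, 2543 and 113 FPKM, in Yorkshire 3, while all HSP90AB1 libraries of Wannanhua lie above those of Yorkshire.

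J-proteins of class B, which deliver clients to HSP70, were the family with a negative median, -0.17 over 8 tested genes, against 0.12 over all genes. Of the 8 genes, 6 were negative and 2 positive (25%, against 62.6% of all genes). The median stood between -0.36 and -0.09 in every alternative run. DNAJB1, the main heat-inducible J-protein, had 14.1, 36.8 and 14.3 FPKM in Wannanhua 1, 2 and 3, against 29.6, 70.6 and 113 FPKM in Yorkshire 1, 2 and 3. As in HSPA1L, Wannanhua 2 was the highest Wannanhua library, and it lay above Yorkshire 1. The mean was 21.8 ± 13.0 FPKM in Wannanhua muscle and 71.0 ± 41.6 FPKM in Yorkshire muscle (SD, n = 3 each; log2 fold change -1.61, 95% interval -2.86 to -0.36, limma adjusted p = 0.141). DNAJB2, a J-protein of nerve and muscle that links clients to ubiquitin, had 19.2, 30.8 and 33.8 FPKM in Wannanhua 1, 2 and 3, against 41.8, 39.6 and 41.6 FPKM in Yorkshire 1, 2 and 3. All Yorkshire libraries lay above all Wannanhua libraries (log2 fold change -0.58, or -0.34 without Wannanhua 1, 95% interval -1.12 to -0.04, limma adjusted p = 0.202). DNAJB4, a close relative of DNAJB1, had 102, 94.8 and 143 FPKM in Wannanhua 1, 2 and 3, against 92.8, 187 and 210 FPKM in Yorkshire 1, 2 and 3. Yorkshire 1 lay below all Wannanhua libraries, so the breeds overlapped (log2 fold change -0.46, 95% interval -1.25 to 0.32, limma adjusted p = 0.452), and the log2 fold change was -0.83 without Yorkshire 1 and -0.24 without Yorkshire 3. DNAJB5 averaged 36.5 ± 4.17 FPKM in Wannanhua muscle and 41.8 ± 18.5 FPKM in Yorkshire muscle (SD, n = 3 each).

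Class A J-proteins of the cytosol differed from each other in spread. DNAJA2, which is always on, had 53.2, 46.5 and 61.0 FPKM in Wannanhua 1, 2 and 3, against 38.5, 37.3 and 32.3 FPKM in Yorkshire 1, 2 and 3. Its breeds did not overlap (log2 fold change 0.55, 95% interval 0.14 to 0.97, limma adjusted p = 0.129). DNAJA1, the heat-inducible relative, had 41.6, 40.1 and 81.8 FPKM in Wannanhua 1, 2 and 3, against 38.3, 56.2 and 98.8 FPKM in Yorkshire 1, 2 and 3. In each breed replicate 3 was the highest library, and the breeds overlapped throughout (log2 fold change -0.21, 95% interval -1.15 to 0.73, limma adjusted p = 0.795), with a log2 fold change of 0.15 without Yorkshire 3.

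Class C J-proteins, the most varied class, gave 19 tested genes with a median of 0.17, against 0.12 over all genes. Of them 15 had positive log2 fold changes (78.9%, against 62.6% of all genes). DNAJC7, also called TPR2, hands clients between HSP70 and HSP90. It had 51.7, 47.9 and 69.3 FPKM in Wannanhua 1, 2 and 3, against 119, 82.5 and 97.1 FPKM in Yorkshire 1, 2 and 3. All Yorkshire libraries lay above all Wannanhua libraries, and its log2 fold change was -0.81 (95% interval -1.33 to -0.30; limma adjusted p = 0.0926). Set against DNAJA2, the ratio was 0.972, 1.03 and 1.14 in Wannanhua 1, 2 and 3, against 3.10, 2.21 and 3.0 in Yorkshire 1, 2 and 3, again chosen after the values were seen. Each of these genes stood apart between breeds, in opposite directions, so the gap in their ratio adds nothing to theirs.

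DNAJC24, which takes part in making diphthamide on a translation elongation factor, had 13.8, 7.66 and 6.90 FPKM in Wannanhua 1, 2 and 3, against 4.75, 3.85 and 3.09 FPKM in Yorkshire 1, 2 and 3. The breeds did not overlap, with Wannanhua 1 well above the rest (log2 fold change 1.05, 95% interval 0.41 to 1.69, limma adjusted p = 0.0867). IMMP1L, which overlaps it in RefSeq build Sscrofa11.1, averaged 38.7 FPKM in Wannanhua muscle and 64.1 FPKM in Yorkshire muscle. DNAJC6, or auxilin, which strips clathrin from vesicles, had 1.47, 2.05 and 1.59 FPKM in Wannanhua 1, 2 and 3, against 0.223, 0.662 and 0.660 FPKM in Yorkshire 1, 2 and 3. It passed the filter through its Wannanhua libraries alone, so a difference was built into its being tested (log2 fold change 0.84, limma adjusted p = 0.0677, and 0.0439 after quantile normalization). DNAJC16, a J-protein of the endoplasmic reticulum membrane, had 2.52, 2.44 and 2.47 FPKM in Wannanhua 1, 2 and 3, against 0.94, 1.29 and 1.23 FPKM in Yorkshire 1, 2 and 3. Its Wannanhua libraries were nearly alike and all above Yorkshire (log2 fold change 0.69, 95% interval 0.32 to 1.07, limma adjusted p = 0.0665).

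**Figure D4:**
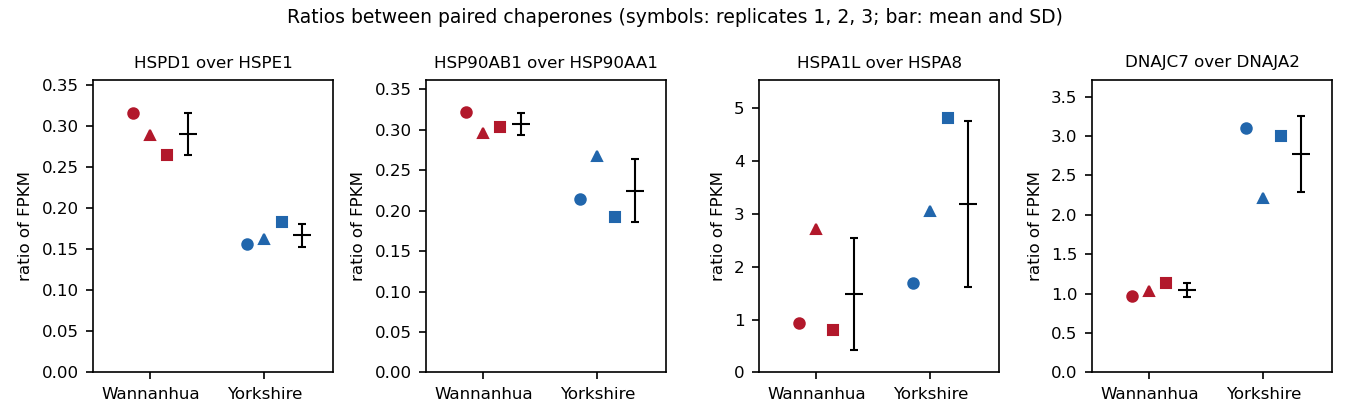
Ratios of FPKM between chaperones in each library, Wannanhua on the left and Yorkshire on the right of each panel, with circle, triangle and square for replicates 1, 2 and 3 and bars for mean and SD. The ratios of HSPD1 to HSPE1, HSP90AB1 to HSP90AA1 and DNAJC7 to DNAJA2 do not overlap between breeds, while that of HSPA1L to HSPA8 does. The pairs were chosen after the values were seen, and no ratio was tested. DNAJC7 and DNAJA2 each stood apart between breeds in opposite directions, so their ratio had to stand apart. Of the ratios not drawn, HSPA9 to HSPA5 did not overlap, while DNAJB1 to DNAJA2 and HSPH1 to HSPA4 did.

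BAG genes, of which BAG1 and BAG3 encode nucleotide exchange factors of HSP70, all had their Wannanhua libraries above their Yorkshire libraries. This held in 3 of 3 genes tested, against 20.3% of all genes. In limma 0 of the 3 passed the adjusted threshold, against 3.05% of all genes, and BAG3 alone had an unadjusted p under 0.05. BAG3, which keeps the Z-disc in repair by sending damaged filamin to autophagy, had 157, 181 and 196 FPKM in Wannanhua 1, 2 and 3, against 74.7, 99.6 and 129 FPKM in Yorkshire 1, 2 and 3. The gap between the breeds was smaller than the spread within Yorkshire (log2 fold change 0.84, 95% interval 0.29 to 1.39, limma adjusted p = 0.0993). BAG6, which escorts tail-anchored membrane proteins, had 50.8, 51.2 and 52.5 FPKM in Wannanhua 1, 2 and 3, against 42.2, 39.5 and 41.9 FPKM in Yorkshire 1, 2 and 3. Both groups were tight, and the difference was small (log2 fold change 0.32, 95% interval -0.03 to 0.66, limma adjusted p = 0.262). BAG1 averaged 48.0 ± 7.34 FPKM in Wannanhua muscle and 39.1 ± 1.5 FPKM in Yorkshire muscle (SD, n = 3 each).

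Subunits of the CCT ring had log2 fold changes from 0.01 to 0.42 over the 6 tested, with a median of 0.15, and 0 of 6 had an unadjusted limma p under 0.05, against 22.1% of all genes. CCT4 had 74.8, 72.9 and 111 FPKM in Wannanhua 1, 2 and 3, against 73.6, 82.5 and 83.8 FPKM in Yorkshire 1, 2 and 3. Wannanhua 3 was the highest of the 6 libraries, and without it the CCT4 log2 fold change was -0.11 and the CCT median 0.03. The highest Wannanhua value lay in Wannanhua 3 in all 6 tested subunits, but also in 25 of 32 cytosolic members (78.1%) and 32 of all 53 members (60.4%), against 41.5% of all genes. CCT7 had 70.5, 76.5 and 80.7 FPKM in Wannanhua 1, 2 and 3, against 86.4, 67.7 and 72.4 FPKM in Yorkshire 1, 2 and 3, and the breeds overlapped (95% interval -0.39 to 0.42). Breeds did not overlap in CCT3, at 74.7 ± 11.1 FPKM in Wannanhua muscle and 55.6 ± 6.63 FPKM in Yorkshire muscle, or in CCT8, at 64.6 ± 4.66 and 53.4 ± 1.26 FPKM in the same order of breeds (SD, n = 3 each; limma adjusted p = 0.245 and 0.355).

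In the endoplasmic reticulum, 14 members had a median of 0.12, equal to that of all genes, and it turned to -0.01 after quantile normalization. HSPA5, the HSP70 of this compartment, averaged 54.5 ± 11.9 FPKM in Wannanhua muscle and 55.0 ± 7.02 FPKM in Yorkshire muscle (SD, n = 3 each), with a 95% interval of the log2 difference of -0.53 to 0.47. HSP90B1, its HSP90, averaged 35.9 ± 6.73 FPKM in Wannanhua muscle and 31.2 ± 8.64 FPKM in Yorkshire muscle (SD, n = 3 each; 95% interval -0.38 to 0.81). Of its J-proteins, DNAJB9 stood at 44.5 to 62.7 FPKM in Wannanhua and 37.9 to 43.3 FPKM in Yorkshire, and DNAJB11 averaged 8.00 ± 0.71 and 8.35 ± 1.02 FPKM in the same order of breeds. DNAJC10, a disulfide reductase of the compartment, stood at 32.4 to 37.2 FPKM in Wannanhua and 32.0 to 32.2 FPKM in Yorkshire. On scaled counts its order turned, with 2266 to 2333 in Wannanhua and 2336 to 2489 in Yorkshire. These genes were picked for mention by role after their values were seen, and DNAJC16 alone of the 14 had an unadjusted limma p under 0.05 (7.14%, against 22.1% of all genes).

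Spread within a breed differed between members. The highest library was at least 2 times the lowest within Yorkshire in 9 of 53 members (17.0%, against 25.6% of all genes), which were DNAJA1, DNAJB1, DNAJB4, DNAJB5, DNAJC3, DNAJC6, DNAJC18, HSPA1L and HSPH1. Within Wannanhua this held for 6 members (11.3%, against 18.6% of all genes), and DNAJA1, DNAJB1 and HSPA1L were on both lists. The lowest Yorkshire value lay in Yorkshire 1 and the highest in Yorkshire 3 in 17 members (32.1%, against 20.4% of all genes), among them HSPA1L, DNAJB1, DNAJA1, DNAJB4, HSPH1, HSPA4 and BAG3. Yorkshire 1 also had the fewest genes at 1 FPKM or more, 10726 against 11491 to 11979 in the other libraries. Its adipocyte markers, 3 of 6 listed with a row, summed to 4.2 FPKM, against 15.5 to 24.2 in the other libraries. Its Schwann cell markers, 2 of 3 listed, summed to 0.853 FPKM, against 3.7 to 11.6. Blood markers went the other way within Yorkshire, at 93.6 FPKM in Yorkshire 1 against 15.8 and 18.4 in Yorkshire 2 and 3. Fibroblast markers stood at 283 FPKM against 647 and 457. Its endothelium and macrophage sums, 41.6 and 15 FPKM, lay between those of Yorkshire 2 and 3. The part of these differences in the pattern was not tested. In Wannanhua the lowest value lay in replicate 1 and the highest in replicate 3 for 21 of 53 members, against 27.3% of all genes. As a count over members such an order was thus not particular to Yorkshire, but the labels do not pair replicate numbers between breeds. Of the genes just named, HSPH1, HSPA4 and BAG3 had this order in Wannanhua too. HSPA1L and DNAJB1 were highest in Wannanhua 2, and DNAJA1 and DNAJB4 were lowest there. HSF1, the factor that switches such genes on, averaged 23.5 ± 4.45 FPKM in Wannanhua muscle and 26.7 ± 2.71 FPKM in Yorkshire muscle (SD, n = 3 each; limma adjusted p = 0.601). HSF2 averaged 17.4 ± 1.66 FPKM in Wannanhua muscle and 15.9 ± 2.67 FPKM in Yorkshire muscle (limma adjusted p = 0.713). These are RNA levels, and the activity of HSF1 and HSF2 was not measured.

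**Figure D5:**
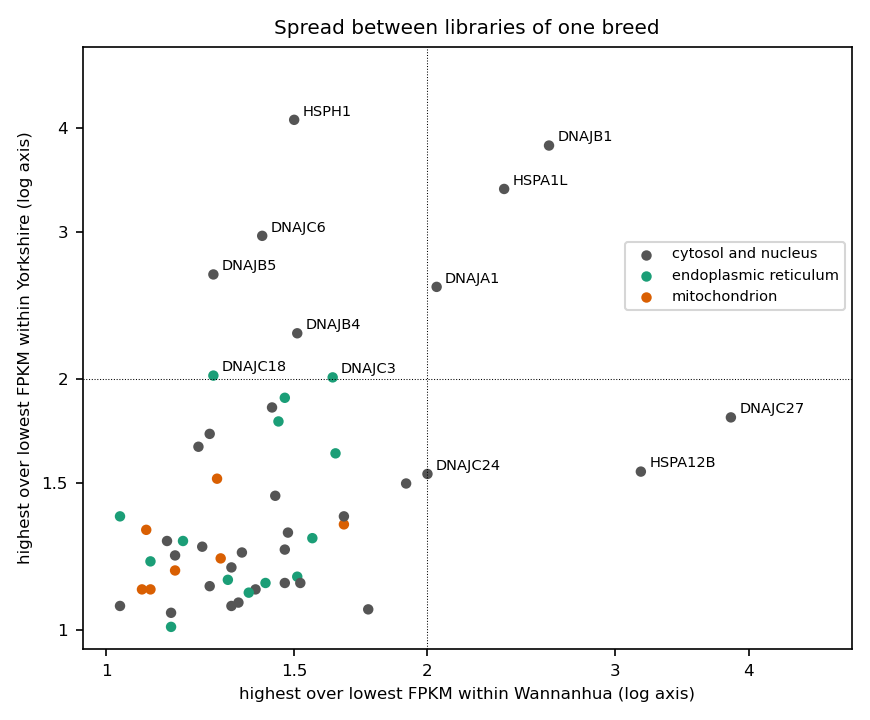
Highest over lowest FPKM among the 3 libraries of a breed for the 53 tested members, Wannanhua on the horizontal and Yorkshire on the vertical log axis, coloured by compartment, with dotted lines at 2. DNAJB1, HSPA1L and DNAJA1 lie beyond 2 on both axes and HSPH1 reaches 4.09 within Yorkshire, while all mitochondrial members lie below 2 on both.

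The 3 members that did not pass the filter were HSPA4L at 0.253 to 0.384 FPKM in Wannanhua and 0.054 to 0.776 in Yorkshire, CCT6B at 0.0802 to 0.42 and 0.379 to 0.88, and DNAJB13 at 0.102 to 0.393 and 0.233 to 0.467, in the same order of breeds. Values this low rest on few scaled counts, at most 44.8 for HSPA4L in Yorkshire 3 and at most 11.0 for CCT6B. The remaining class C genes, DNAJC1, DNAJC2, DNAJC3, DNAJC4, DNAJC9, DNAJC13, DNAJC14, DNAJC17, DNAJC18, DNAJC25 and DNAJC27, all had 95% intervals that included 0, as did CCT2, CCT5, DNAJB12, DNAJB14 and HSPA13.

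Partners of the chaperones that are no members were read from a list of 78 symbols, of which 52 had a row and 51 were tested. In limma 0 passed the adjusted threshold and 9 stood at an unadjusted p under 0.05 (17.6%, against 22.1% of all genes), 7 with a positive and 2 with a negative log2 fold change. TOMM70, the mitochondrial import receptor that binds HSP70 and HSP90, averaged 20.4 ± 1.65 FPKM in Wannanhua muscle and 12.8 ± 0.35 FPKM in Yorkshire muscle (SD, n = 3 each; limma adjusted p = 0.0762). CDC37L1, a relative of the HSP90 co-chaperone CDC37, averaged 58.8 ± 14.8 FPKM in Wannanhua muscle and 30.1 ± 5.65 FPKM in Yorkshire muscle (limma adjusted p = 0.0803). CANX, the lectin chaperone calnexin, averaged 47.5 ± 5.50 FPKM in Wannanhua muscle and 28.7 ± 5.46 FPKM in Yorkshire muscle (limma adjusted p = 0.10). FKBP5, an HSP90 partner that glucocorticoids induce, averaged 79.9 ± 23.8 FPKM in Wannanhua muscle and 36.0 ± 17.4 FPKM in Yorkshire muscle (limma adjusted p = 0.116). CNPY2, TOMM34, ERO1A and SGTA followed, at log2 fold changes of -0.58, -0.53, 0.73 and 0.40. TCP1, the remaining subunit of the CCT ring with a row, averaged 44.6 ± 4.38 FPKM in Wannanhua muscle and 35.9 ± 3.44 FPKM in Yorkshire muscle (limma adjusted p = 0.332). STIP1 and AHSA1, both HSP90 co-chaperones, had log2 fold changes of -0.15 and 0.07. In the cytosolic cofactor list 12 of 23 tested genes lay above 0 (52.2%, median 0.01). In the endoplasmic reticulum list 14 of 16 did (87.5%, median 0.17), and in the mitochondrial list 4 of 5 did (80%, median 0.23). Of all genes tested 62.6% lay above 0, with a median of 0.12.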

How the data were processed

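The labels' protocols describe poly-A selection and random-primed paired-end libraries made with TruSeq RNA, a kit that does not mark strand, so reads of overlapping genes (17 members overlap a protein-coding gene in RefSeq build Sscrofa11.1) cannot be told apart. Per the submitters' processing notes, the names are CASAVA 1.7, TopHat2 2.0.6 and the genome Sscrofa10.2, in roles the notes leave unstated. Neither a read counter nor a rule for multi-mapped reads is stated (not given in the sources used here). For each library and gene, the authors deposited an FPKM value and a count value. The deposited count values are not whole, and are treated as a signal, the gene counts divided by a library factor. They are not read numbers, so counting error is not given. The FPKM-to-scaled-count ratio of a gene was not fixed across libraries.

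A table pairing Ensembl identifiers with symbols matched 10384 of 17627 rows (58.9%), and no member's row was listed at 0 in any library. The fit was limma 3.58.1 in R 4.3.3 on log2(FPKM + 1), with breed as its only term and trend and robust moderation, over all genes at 1 FPKM or more in at least 3 libraries. This scale understates the change of low genes. Left out were 7 genes listed at 0 in a library despite a scaled count of at least 10000 elsewhere; none was a member. Benjamini-Hochberg adjustment ran over all genes tested, with a threshold of 0.05, and the fit was tested on simulated data. The intervals are limma's 95% intervals. The alternatives were a pseudocount of 0.1, no filter, a filter at 5 FPKM, quantile normalization, limma without trend and robust settings, the replicate number as a block, keeping the 7 genes and leaving out each library. The limma fit on scaled counts was added after seeing the data. Members, gene lists, compartments and tests were chosen with earlier results of these data known. Columns were matched to samples by the labels' descriptions and titles. A member is given in every library if it passed the threshold, had an unadjusted p under 0.05 or had 1 of the 2 highest mean FPKM of its family. The first 8 partner genes by unadjusted p are given too. Python 3.11.15 with pandas 2.3.3 made the summaries.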

Additional observations from a re-analysis of the deposited data

How the results depend on the processing

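The count of 360 genes past limma's threshold, 208 higher and 152 lower in Wannanhua, was 69 without a filter, 31 higher and 38 lower. It was 338 after quantile normalization, 138 higher and 200 lower, so that 40.8% of calls were higher against 57.8% as reported. With each library left out it ranged from 27 to 524, with 9 to 289 higher and 15 to 235 lower. The count of 1 chaperone past the threshold was 2 with a filter at 5 FPKM and on scaled counts (DNAJC28 and HSPD1), 2 after quantile normalization (DNAJC28 and DNAJC6), and 0 to 1 with each library left out. DNAJC6 had passed the filter through its Wannanhua libraries alone. The cytosolic median of 0.24 was 0.12 after quantile normalization, and the BAG median of 0.32 was 0.48 on scaled counts. CCT7 stood at -0.01 after quantile normalization. With each library left out, the log2 fold change ran from -0.06 to 0.11 for CCT7, -0.11 to 0.19 for CCT4, -0.02 to 0.28 for DNAJC19, -0.54 to 0.15 for DNAJA1, 0.50 to 1.45 for HSPH1, -0.83 to -0.24 for DNAJB4, -0.73 to -0.34 for DNAJB2, -0.43 to -0.15 for HSPA8, 0.23 to 0.50 for HSP90AA1 and 0.03 to 0.15 for HSPE1. The medians ran from 0.03 to 0.22 for CCT, 0.45 to 1.11 for HSP110, 0.13 to 0.30 for DNAJC and 0.03 to 0.23 for the endoplasmic reticulum. The cause of these shifts was not tested. The 0 partner genes past the threshold stayed 0 in all 14 alternatives.

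Replicate numbers are shared between breeds, but the labels do not say that they pair animals. Deviations of same-numbered libraries from their breed means correlated at 0.10, -0.01 and 0.11, values that cannot settle whether the libraries were paired. By the same measure 4 of 6 libraries correlated best with their own number in the other breed. These comparisons draw on the same correlations and no chance level was computed, so this count cannot settle pairing either. With the replicate number as a block 205 genes passed, 115 higher and 90 lower, and 1 chaperone, DNAJC28. The planned count test was not run, because whole reads could not be recovered in every library. With 3 libraries a breed, wide intervals such as those of DNAJB1 and HSPA1L limit what could be detected.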
